A study of Drosophila melanogaster with 2 samples.

Results

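The trithorax and Brahma complex genes examined here were brm, mor, osa, Snr1, Bap60, trx, ash1 and ash2, a set of 8 genes chosen by symbol, out of 13945 protein-coding genes. Their values come from chromatin immunoprecipitation with sequencing (ChIP-seq) in 1 group of 2 biological replicates. The group was whole Drosophila melanogaster embryos of both sexes from 0 to 24 h, of strain CG7987-GFP, a transgenic line with GFP at the C-terminal end of CG7987. The antibody label names CG7987, yet a free-text label line describes both libraries as an input control for that ChIP. The values therefore describe where peaks were found, and which label is right was not tested. Which promoter drives the fusion, and in which cells it is made, is not stated in the labels used here.

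Trithorax group proteins keep developmental genes active and oppose Polycomb repressors. The Brahma complex, the fly SWI/SNF complex, slides and ejects nucleosomes with energy from ATP. Its ATPase is encoded by brm. The core scaffold protein Moira is the product of mor, Snr1 encodes the SNF5-type core subunit, Bap60 the subunit of the BAF60 family, and osa the ARID protein that defines one form of the complex. The genes trx and ash1 encode SET-domain histone methyltransferases, and ash2 encodes a subunit shared by COMPASS-type methyltransferase complexes. The question put to the data was whether, and where, peaks of the CG7987-GFP libraries lay at the genes of this machinery.

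Summits, the highest points of the deposited peaks, were counted in each gene and 2 kb either side. The main list, of 4410 peaks, was deposited as passing a threshold on the irreproducible discovery rate (IDR), which compares both replicates. Candidate lists of 30000 peaks each exist for replicate 1, replicate 2 and their pool. Peak strength is the signal of the authors' caller, on a scale not given in the sources used here, and rank 1 is the strongest peak of a list. Each of the 12 IDR summits described below had the same rank in the pooled list. All other pooled candidates in the gene windows had signals under 138.6, the lowest of the IDR list. Below the threshold thus means a lower pooled signal here, and by itself does not show that the replicates disagree. Of the 4410 IDR peaks, 4342 overlapped a candidate in both replicates. Library depth is unknown from these lists.

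Of the 8 genes, 6 had an IDR summit in this window, and the 12 summits fell into 2 patterns. In osa and trx, the longest members, 7 summits lay inside the gene, each in an intron. At brm, mor, Bap60, trx and ash1, 5 summits lay outside the gene, and each was nearer to the transcription start site (TSS) of a neighbouring gene than to one of the member itself. The genes Snr1 and ash2 had none. Only brm and Bap60 had an IDR summit within 500 bp of an own TSS, 2 of 8 genes (25.0%, exact Clopper-Pearson 95% interval 3.19 to 65.1), against 20.5% of all protein-coding genes. The share is near that of all genes and is no result about the members. The window count of 6 of 8 (75%, 34.9 to 96.8) compares with 35.1% of all protein-coding genes, but windows grow with gene length. With no flank the count was 2 of 8, against 12.9%. Per 100 kb of window the members held 10.1 IDR summits, against 4.04 over all protein-coding gene windows. Of the 12 summits behind this density, osa held 5 and trx 3, while Snr1 and ash2 held 0. The density also counts the 5 summits outside the members, each nearer to a TSS of another gene. It therefore does not describe the member genes alone, and the difference from all windows was not tested. The interval covers counting error over genes only.

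**Figure D1:**
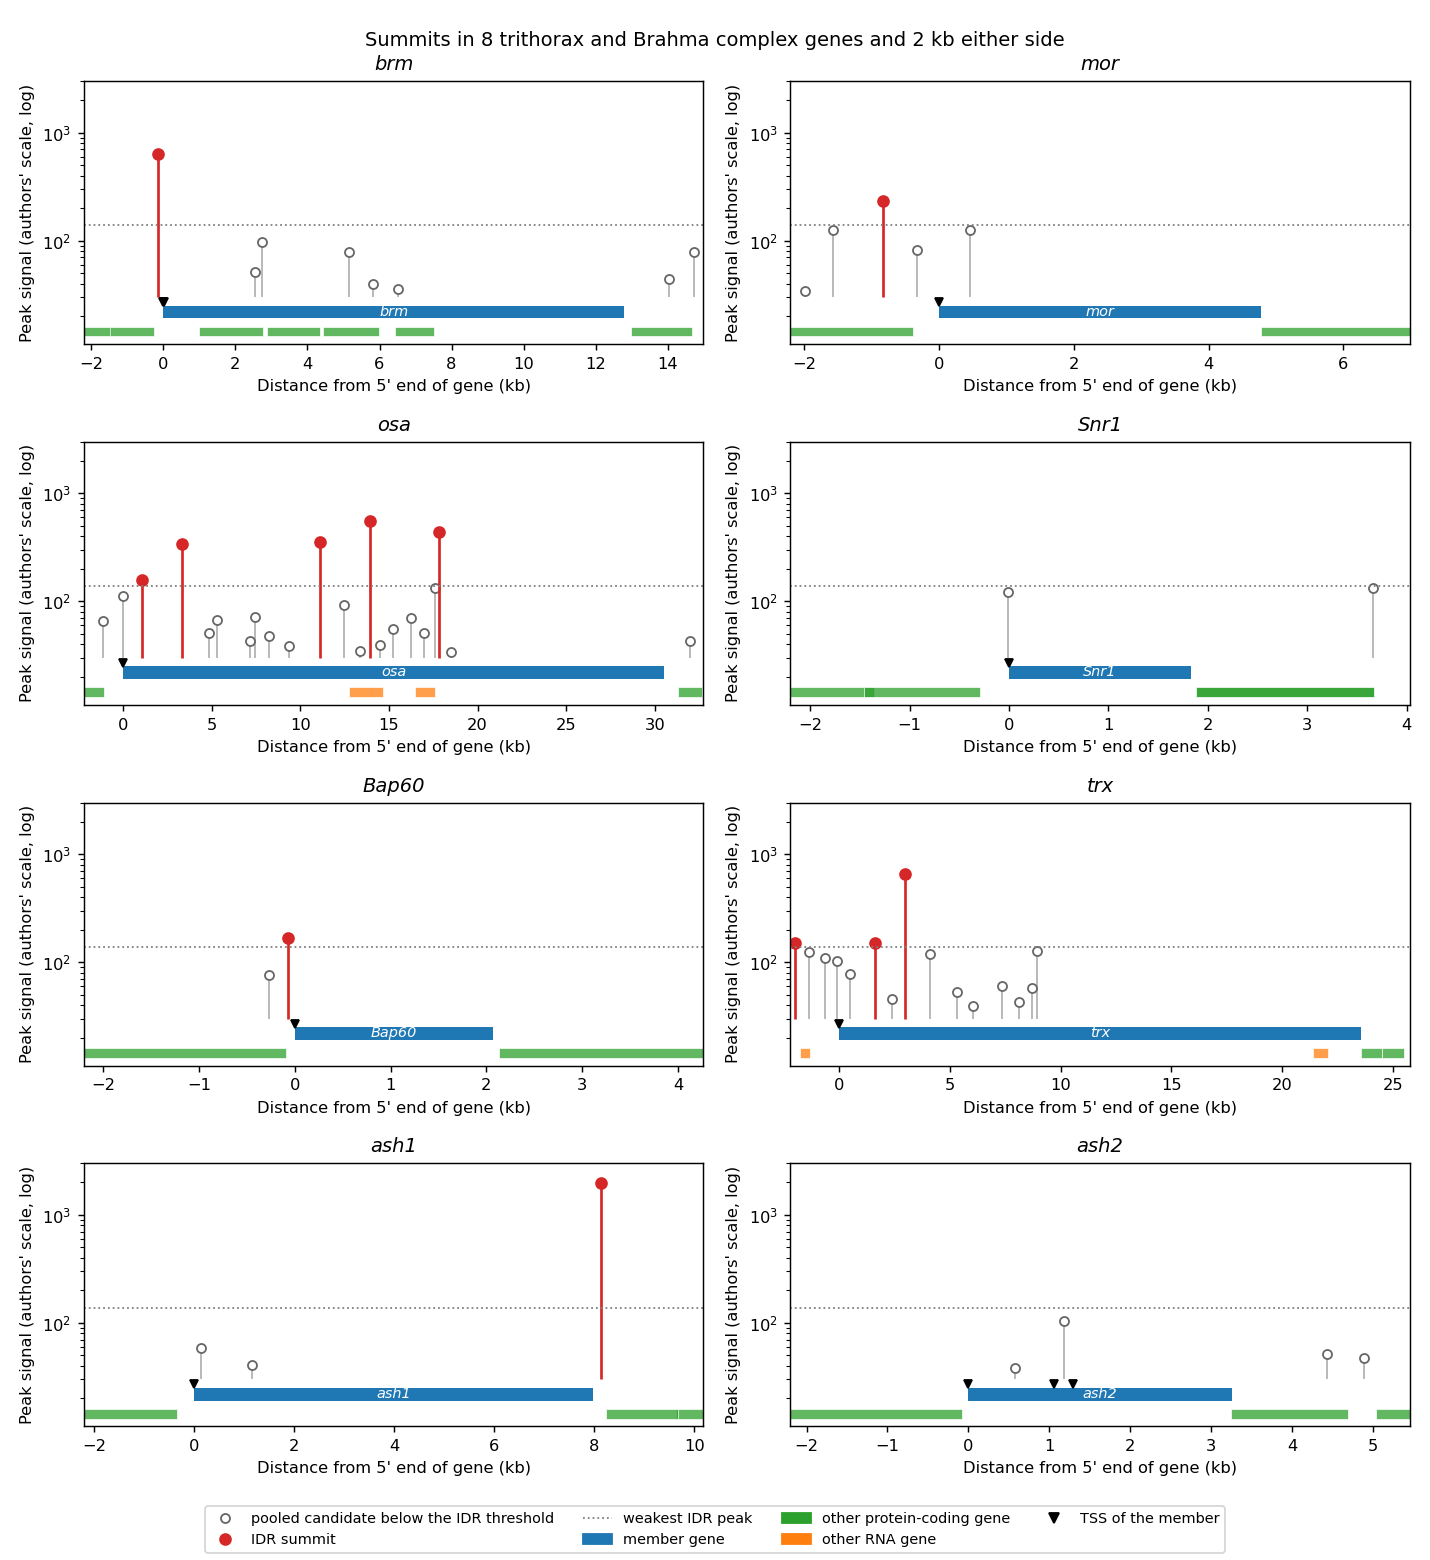
Peak signal on the scale of the authors' caller (log axis) against distance from the 5′ end of each of the 8 genes in kb, for IDR summits (filled) and weaker pooled candidates (open). Blue bars are the member genes, green and orange bars other protein-coding and other RNA genes, triangles the TSSs, and the dotted line the weakest IDR peak; the 12 IDR summits lie in introns of osa and trx or outside the member genes.

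The bases around the summits are shown for both promoters with an IDR summit, for the strongest site of all, which lies past the 3′ end of ash1, and for intronic sites of trx and osa. The osa site shown, with a signal of 355, is the weakest of the 3 IDR summits in intron 4. It is also the only 1 of the 12 windows with CACGTG. Each line gives 101 bp centred on the summit, on the plus strand of dm6 (RefSeq sequence of Release 6). Capitals mark matches to any of 8 short motifs, searched on both strands: TATCGATA, the element bound by DREF, CGATA, the core of BEAF-32 sites that is also contained in TATCGATA, GGTCACAC of core promoter motif 1, the E-boxes CACGTG and CAGCTG, the word GAGAG of GAGA factor sites, the Zelda word CAGGTA, and the TATA box word TATAAA.
brm, chr3L:15982977-15983077: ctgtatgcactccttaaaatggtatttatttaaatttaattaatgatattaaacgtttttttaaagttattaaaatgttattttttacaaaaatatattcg
Bap60, chrX:13159526-13159626: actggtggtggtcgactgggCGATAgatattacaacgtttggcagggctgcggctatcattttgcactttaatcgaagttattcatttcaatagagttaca
ash1 3′ side, chr3L:19590571-19590671: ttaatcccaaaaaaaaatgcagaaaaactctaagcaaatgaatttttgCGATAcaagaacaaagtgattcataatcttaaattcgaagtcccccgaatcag
trx intron 1, stronger summit, chr3R:14283860-14283960: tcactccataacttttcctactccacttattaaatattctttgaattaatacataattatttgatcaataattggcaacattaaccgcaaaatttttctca
trx intron 1, weaker summit, chr3R:14285223-14285323: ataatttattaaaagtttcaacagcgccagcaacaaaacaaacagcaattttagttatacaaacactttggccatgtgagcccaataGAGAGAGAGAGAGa
osa intron 4, chr3R:17707214-17707314: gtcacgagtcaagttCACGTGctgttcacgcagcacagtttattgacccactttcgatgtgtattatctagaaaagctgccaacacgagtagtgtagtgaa

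No motif was common to these windows. At least 1 of the 8 motifs was present in 9 of the 12 windows, against 50.2% of the windows of all IDR summits and 57.1% of 101 bp windows centred on the 5′ ends of protein-coding genes. GAGAG was in 4 of the 12, at mor, trx and 2 osa sites, against 16.0% of all IDR windows and 11.5% of promoters. CGATA was in 2 windows, at Bap60 and ash1, against 20.2% and 25.8%. TATAAA was in 2 osa windows, against 11.2% and 17.0%, and CACGTG in 1 osa window, against 3.22% and 1.98%. The other 4 had no match in the 12 windows. They were TATCGATA, held by 2.79% of IDR windows and 5.56% of promoters, GGTCACAC, by 2.81% and 5.59%, CAGCTG, by 7.19% and 9.34%, and CAGGTA, by 1.79% and 1.97%. Base composition ranged widely, from 16.8% GC in the brm window to 58.4% GC at an osa intron 2 site. The median of the 12 windows was 38.1%, against 43.6% over all IDR windows. A GC content as low as at brm was found in 0.317% of the IDR windows.

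The gene of the Brahma ATPase carried the strongest promoter summit of the set. brm (FBgn0000212, 3L 15970082 to 15982869, minus strand) has 2 annotated TSSs. An IDR peak 282 bp wide spanned 15982862 to 15983143. Its summit, at 15983027, was 158 bp upstream of the first TSS and 178 bp upstream of the second. Its signal was 629.6, rank 185 of the IDR list. The summit also lay 108 bp upstream of Arl1, which is transcribed in the opposite direction and encodes a small GTPase of the Arf family, so it cannot be assigned to brm alone. Among the 7721 protein-coding genes with a pooled candidate within 500 bp of a TSS, the brm promoter was at position 140. In the single replicates the peak ranked 793 in replicate 1, with a signal of 112, and 141 in replicate 2, with a signal of 505. Both replicate summits were upstream of brm, at 195 and 130 bp, so the site was high in both, and higher in rank in replicate 2.

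The rest of the brm gene held candidates below the IDR threshold only. Nested in it are 4 genes on the opposite strand, and several weak candidates sat at their starts. Summits at 15980123 and 15980324, with signals of 97.8 and 51.5, were 23 and 28 bp from starts of CG17027. Their pooled peaks overlapped, and both matched the same peak in each replicate (rank 18745 in replicate 1, 7271 in replicate 2). A summit at 15977040, with a signal of 39.3, was 7 bp from the start of CG17029. These candidates ranked between 7639 and 24992 of the pooled list, which is labelled as holding peaks and background.

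Bap60 had the other promoter summit, close to the IDR threshold. The gene (FBgn0025463, X 13157445 to 13159508, minus strand) has 1 TSS, and the IDR summit at 13159576 lay 68 bp upstream of it and 28 bp upstream of the divergent gene CG12096. The signal was 166, at rank 3195, against 139 for the weakest peak of the IDR list. Replicate 1 placed the matched peak at rank 4910 with a signal of 46.8, and replicate 2 at rank 2885 with a signal of 122. Replicate 1 alone would therefore not have kept the site among its 4410 strongest candidates.

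For the scaffold gene mor the single IDR summit belongs to the neighbour by position. mor (FBgn0002783, 3R 15968134 to 15972913, minus strand) faces away from Hel89B, with start sites 385 bp apart. The IDR summit at 15973737 lay 824 bp upstream of mor and inside the 5′ UTR of Hel89B, 439 bp past its start. Hel89B encodes a helicase of the SNF2 superfamily, the family of brm itself. The signal was 230.1 at rank 1678, and the matched peaks ranked 1506 in replicate 1 and 2751 in replicate 2. Nearer to mor, 2 pooled candidates stayed below the threshold, at 466 bp downstream of the TSS (signal 126, rank 5167) and at 326 bp upstream (82.6, rank 9702). The upstream one was seen in 1 replicate: it ranked 1391 in replicate 1, and no replicate 2 candidate overlapped it.

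osa, the ARID subunit gene, held the most summits. It spans 30533 bp (FBgn0261885, 3R 17687818 to 17718350, minus strand), and all of its 6 annotated transcripts start at 1 TSS. Its 5 IDR summits lay 1055, 3325, 11086, 13942 and 17811 bp downstream of that TSS, with signals of 157, 341, 355, 550.1 and 441. The nearest was in intron 1, the next in intron 2, and 3 were in intron 4, which is 8067 bp long. The strongest, at rank 255, was also in an exon of lncRNA:CR46035, a non-coding gene nested in osa on the opposite strand. The one at 17811 bp was 202 bp upstream of a second nested gene, lncRNA:CR46036. Its peak ended at 17700750, past the start of that gene at 17700741. An overlapping pooled candidate below the threshold, with a signal of 134 at rank 4669, had its summit 1 bp from that start. The strongest site was even between replicates, at rank 340 in replicate 1 and 233 in replicate 2. The site in intron 2 ranked 268 and 1343 in replicates 1 and 2, while the site at 17811 bp ranked 2262 and 276. A second, weaker replicate 1 candidate, at rank 4370, also overlapped the peak at 17811 bp. The order of the osa sites thus differed between the replicates.

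At the osa TSS itself the pooled list held a candidate 12 bp into the 5′ UTR, at a signal of 113 (rank 6153), short of the threshold. It ranked 5877 in replicate 1 and 8653 in replicate 2, so neither replicate had it among its 4410 strongest. Candidates were uneven along the gene: of 22 pooled candidates in the osa window 19 were in introns, and inside the gene none lay beyond 18497 bp from the TSS. In replicate 1 the last one inside the gene was at 19677 bp. The 3′ part of the gene, which ends 30533 bp from the start, thus had none in these lists. Because osa is long, its count was set against other long genes: at least 5 IDR summits were found in the windows of 9.08% of the 1013 protein-coding genes over 20 kb.

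trx showed a similar layout. The gene (FBgn0003862, 3R 14263358 to 14286903, minus strand) is 23546 bp long with 1 TSS. Its strongest summit, at 14283910, lay in intron 1, 2993 bp downstream of the TSS, with a signal of 649 at rank 171. The replicates differed at this site: it ranked 116 in replicate 2, with a signal of 536, and 1532 in replicate 1, with a signal of 83.4. In replicate 1 a second, weaker candidate, with a signal of 47.6 at rank 4783, also overlapped the peak. Another intron 1 summit, 1630 bp downstream at 14285273, had a signal of 151 at rank 3799, and its matched peaks ranked 3241 in replicate 1 and 5269 in replicate 2. It is the site with the run of GAGAG matches printed above, which lies at one edge of the 101 bp.

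The last trx summit, at 14288874, was 1971 bp upstream of the TSS, just inside the 2 kb limit, and 197 bp upstream of red, a neighbouring gene. Its signal was 150.0 at rank 3845, with ranks of 6223 in replicate 1 and 2978 in replicate 2. At the trx promoter the pooled candidate 85 bp upstream of the TSS had a signal of 102 and ranked 7229, below the threshold. Here replicate 1 was higher, at rank 1884, against 6074 in replicate 2. Among the 4410 strongest candidates of each replicate, 7 summits of replicate 1 and 2 of replicate 2 lay in the trx window. Inside the gene no pooled candidate lay beyond 8914 bp, and no replicate 1 candidate beyond 10747 bp. Of the protein-coding genes over 20 kb, 55.8% had an IDR summit in their window and 20.7% had at least 3, as trx did.

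The strongest summit of all lay beside ash1 but at another start site. ash1 (FBgn0005386, 3L 19590773 to 19598755, minus strand) ended 152 bp before a summit at 19590621 with a signal of 1969, rank 11 of the IDR list. The same summit was 97 bp upstream of CG14100, the next gene on the same strand, and 8134 bp from the ash1 TSS. Both replicates had it near the top, at rank 31 in replicate 1 and 8 in replicate 2. The ash1 promoter was the weakest of the set: its pooled candidate, 132 bp into the 5′ UTR, had a signal of 58.9 and ranked 15076, with ranks of 12429 and 14261 in replicates 1 and 2. The strongest IDR summit in the windows of the 8 genes thus lay just outside ash1. Inside the gene, the ash1 promoter held the weakest promoter candidate of the 8 genes.

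Snr1 and ash2 had no IDR summit in their windows. At Snr1 (FBgn0011715, 3R 5470926 to 5472754, plus strand) a pooled candidate 9 bp upstream of the TSS had a signal of 122 at rank 5433, with similar ranks of 5917 in replicate 1 and 5328 in replicate 2. A somewhat stronger candidate, with a signal of 132 at rank 4791, lay past the 3′ end, 9 bp from starts of HDAC3, a histone deacetylase gene, and CG45100, which share that start. ash2 (FBgn0000139, 3R 24650125 to 24653376, plus strand) has 3 TSSs, and its strongest candidate lay 107 bp upstream of the third, in an intron, with a signal of 103 at rank 7085. Replicate 2 placed its strongest ash2 promoter candidate at the same TSS, 111 bp upstream, at rank 4830. In replicate 1 the strongest was 73 bp upstream of the first TSS and 9 bp upstream of the divergent gene puf, at rank 9275. A weaker replicate 1 candidate, at rank 13619, overlapped the pooled peak, with its summit 79 bp away and 51 bp downstream of the second TSS.

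All 8 genes had a pooled candidate within 500 bp of a TSS (exact interval 63.1 to 100%), as did 55.4% of all protein-coding genes. All 8 also had a pooled candidate in the window, against 72.4% of all. Taking the 4410 strongest candidates of 1 replicate in place of the IDR list, 3 of 8 promoters had a summit in replicate 1 (brm, mor and trx), against 19.7% of all protein-coding genes. In replicate 2 it was 2 of 8 (brm and Bap60), against 20.6%. brm was the only promoter of the set present in the IDR list and in both of these lists.

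**Figure D2:**
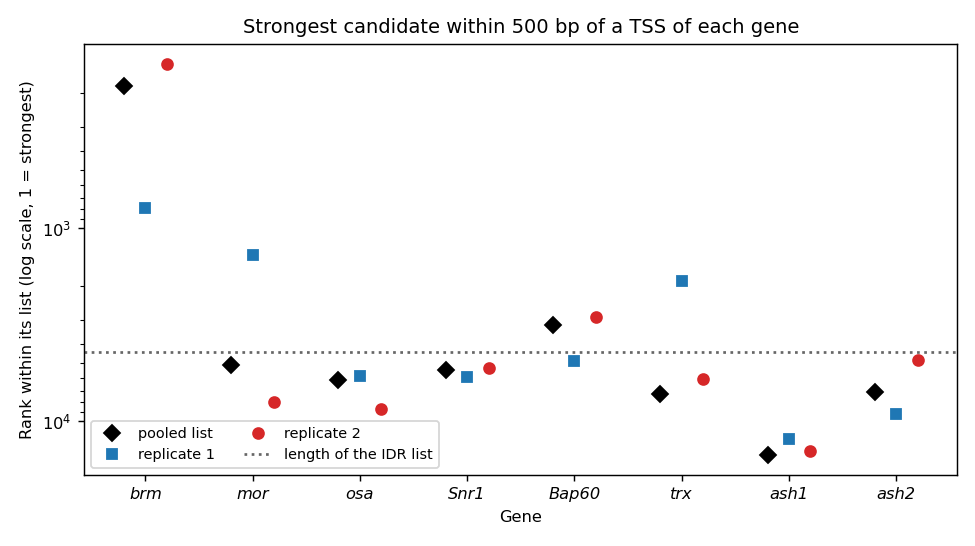
Rank of the strongest candidate within 500 bp of a TSS of each gene, in the pooled list (diamonds), replicate 1 (squares) and replicate 2 (circles), on a log axis with the strongest at the top. The dotted line marks rank 4410, the length of the IDR list; brm lies above it in all 3 lists, while osa, Snr1, ash1 and ash2 lie below it in all 3.

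Each of the 12 IDR peaks shared at least 1 bp with a candidate of each replicate, with summits at most 89 bp apart in replicate 1 and 51 bp in replicate 2. For 9 of the 12 the matched peak was among the 4410 strongest of both replicates, against 59.9% of all IDR summits. The exceptions were the Bap60 site and the trx site near red, which ranked lower in replicate 1, and the weaker trx intron site, which ranked lower in replicate 2. Replicate 2 ranked 8 of the 12 sites better, against 51.9% of all IDR summits matched in both replicates. With 2 replicates of 1 group no test of these rank differences was made.

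**Figure D3:**
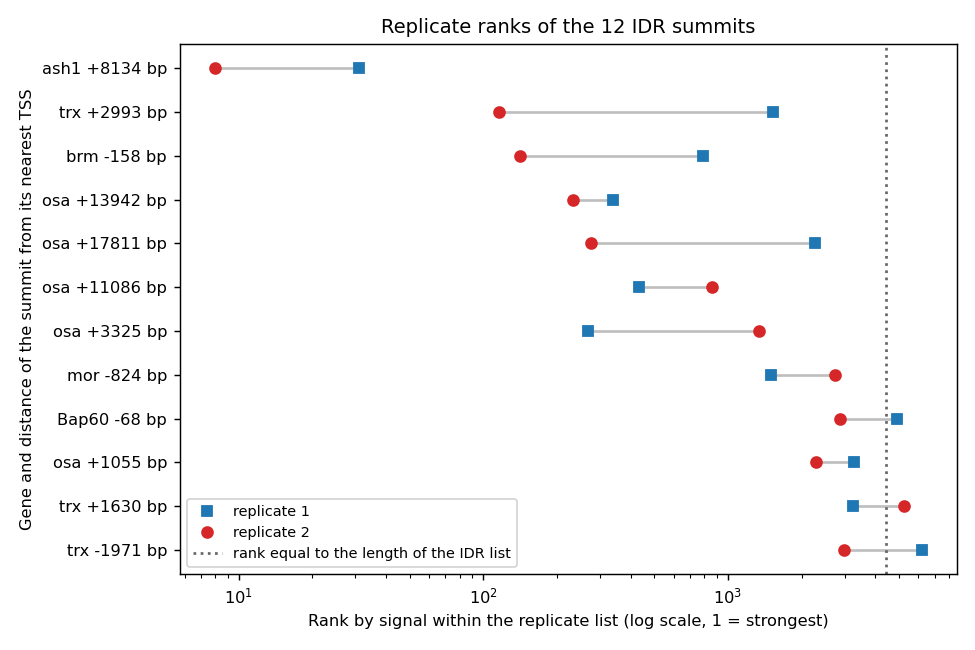
Rank of the matched peak in replicate 1 (squares) and replicate 2 (circles) for each of the 12 IDR summits, on a log axis, ordered by IDR signal from the top. Labels give the gene and the distance from its nearest TSS; the site past the 3′ end of ash1 ranks 31 and 8, and the trx site at 2993 bp ranks 1532 and 116.

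Shared start regions were frequent in this set. Another gene started on the opposite strand within 500 bp upstream of 6 members, against 28.4% of all protein-coding genes. The pairs were brm with Arl1, mor with Hel89B, Snr1 with mRpL44, Bap60 with CG12096, ash1 with Taf6 and ash2 with puf. Of these 6 members, 2 had an IDR summit within 500 bp of an own TSS, against 34% of all protein-coding genes with such a neighbour. The 2 members without such a neighbour, osa and trx, were those with intronic summits. They were also the longest members, at 30533 and 23546 bp, so gene length and lack of a neighbour cannot be told apart here. Of the 12 IDR summits 6 lay within 500 bp of a TSS of any gene, against 58% of all IDR summits, and each of the 6 was within 500 bp of a gene outside the set.

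Related genes gave shares from 25.0% to 57.1% with an IDR summit within 500 bp of a TSS, against 20.5% of all protein-coding genes. Other subunits of the Brahma complex had 2 of 8 (25.0%), Act5C, an actin gene (signal 204), and Brd7-9, a bromodomain protein gene (165). Bap55, Bap111, Bap170, polybromo, e(y)3 and BCL7-like had none within 500 bp of a TSS. In the gene or 2 kb either side, however, Bap55 had 2 IDR summits and Bap170 had 1. All 8 of these subunit genes had a pooled candidate within 500 bp of a TSS, as did 55.4% of all protein-coding genes. COMPASS and related genes had 4 of 13 (30.8%), with Mnn1, the menin gene (301), Ptip (284) and Lpt (205) highest. Other trithorax group genes had 4 of 7 (57.1%, 95% interval 18.4 to 90.1), led by fs(1)h, a BET bromodomain protein gene (293), tna (263) and Trl, which encodes GAGA factor (229). Genes of other remodeller ATPases had 4 of 8 (50%), led by Ino80 (403), Chd1 (209.5) and Iswi (209). Genes of the opposing Polycomb repressors had 8 of 19 (42.1%, 20.3 to 66.5), led by ph-p (1297), E(z) (380.3) and Su(z)2 (275). The intervals of all 6 lists overlap widely, and no difference between lists was tested.

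**Figure D4:**
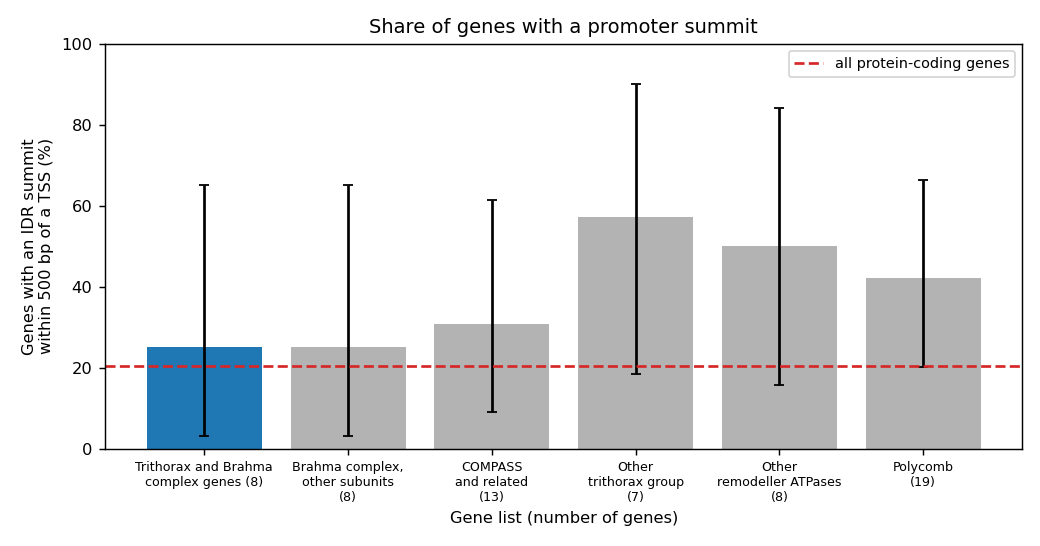
Share of genes with an IDR summit within 500 bp of a TSS, in percent, for the 8 trithorax and Brahma complex genes (blue) and 5 related lists (grey), with exact Clopper-Pearson 95% intervals. The dashed line is the share of all protein-coding genes, 20.5%; 25.0% of the 8 genes had such a summit.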

How the data were processed

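ChIP-seq peak lists of 2 biological replicates were used. Per the deposited readme texts, the authors made candidate peaks per replicate and on the pool, always against 1 control library, and derived the IDR list from these lists, on dm6. Column 7, the deposited signal value, ranked peaks. The deposited −log10 q-value is tied across the IDR list and was not used. Aligner, peak caller, threshold, signal scale and read depth: not given in the sources used here. All 4410 IDR peaks are in the pooled list. Each candidate list is fixed at 30000 peaks, so its length says nothing of the amount of binding.

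Summits (counted from 1) on 6 chromosome arms were set against Ensembl 115 (BDGP 6.54, dm6 coordinates). Replicate ranks are those of the overlapping peak with the nearest summit. Shares carry exact Clopper-Pearson intervals at 95%. No p-value was computed, because members, lists, motifs and windows were chosen with earlier results of these data known. All 8 members are named, and of each other list the up to 3 genes with the highest signal. For the other Brahma subunits the genes without a promoter summit are named too. Neighbouring genes are named for their position. Among the Polycomb symbols, 1 was matched by a synonym. Functions were tested on simulated summits. Calculations ran in Python 3.11.15 with scipy 1.17.1, pandas 2.3.3 and numpy 2.4.6, and figures in matplotlib 3.10.9.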

Additional observations from a re-analysis of the deposited data

How the results depend on the processing

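The count of 2 members with an IDR summit within 500 bp of a TSS was 1 among the stronger 50% of the IDR list (brm; 10.9% of all protein-coding genes) and 8 over all pooled candidates (55.4% of all). It was 2 with 250 bp (17.4%), 3 with 1000 bp (23.5%), and 2 with the 5′ end alone (18.3%) or the RefSeq annotation (20.4%). Leaving out 1 replicate, with the 4410 strongest candidates of the other, gave 2 to 3: without replicate 2, mor and trx entered and Bap60 dropped out. The count of 6 members with a summit in the gene or 2 kb either side was 2 with no flank (osa and trx; 12.9% of all protein-coding genes), 6 with 1 kb (29.6%), 7 with 5 kb (48.1%), 5 among the stronger 50% (21.1%) and 8 over all pooled candidates (72.4%). It was 6 without replicate 1 (35.6%), without replicate 2 (33.7%) and with RefSeq (35.0%). The 12 IDR summits became 7 with no flank, 61 over all pooled candidates, 11 to 18 without 1 replicate, and 8 to 14 under the other settings. Under the other criteria for a match 9 to 12 of the 12 summits were matched in both replicates. With 100 bp either side 11 windows held a motif, against 9 with 50 bp. No paired analysis was possible because there is 1 group. With 8 genes the intervals are wide, the pooled list mixes peaks with background, and depth is unknown, so a missing IDR summit at Snr1 or ash2 does not show absence of signal.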

Other observations

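With the flank widened to 5 kb, Snr1 gained 2 IDR summits, both at genes outside the set and named after their values were seen. One lay in RpL35A, a ribosomal protein gene, 3830 bp upstream of the Snr1 TSS, with a signal of 535 at rank 266. The other lay in POLDIP2, 3104 bp upstream, with a signal of 142 at rank 4214. No other member gained a summit.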
